A study of Mus musculus with 10 samples.

Results

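The Nkx genes encode homeobox transcription factors that give organs and neural cell types their identity in the embryo. The 8 members described here, Nkx2-1, Nkx2-2, Nkx2-3, Nkx2-5, Nkx2-9, Nkx3-2, Nkx6-1 and Nkx6-2, were followed through 4 lists of ChIP-seq sites from mouse embryonic stem cells (ESCs). They are 8 of 22380 protein-coding gene records of GENCODE vM1 on mm9. A site was assigned to a gene when it shared at least 1 bp with the gene body or the 5 kb on either side of it. From the rest of the family, which was not counted in full, 5 genes (Nkx1-1, Nkx1-2, Nkx2-4, Nkx2-6 and Nkx6-3) were taken by the same rule for comparison.

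Suz12 is a core subunit of Polycomb repressive complex 2 (PRC2), which trimethylates lysine 27 of histone H3 (H3K27me3), a mark of silent developmental genes. Pcl3 is an accessory protein of that complex. In ESCs, genes for transcription factors of later lineages are typical PRC2 targets and are kept ready but silent, and Nkx genes are among them.

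The experiment asked which genes need Pcl3 for Suz12 binding and for H3K27me3. Suz12 (anti-FlagM2) and H3K27me3 were precipitated from ESCs of BayGenomics gene trap line XG122 with the genotype Suz12Suz12TAP/+, in which 1 Suz12 allele carries a TAP tag at its own locus. Each antibody was used on 1 library from cells expressing scramble shRNA and 1 from cells expressing Pcl3-shRNA. Pcl3 was precipitated with the same Flag antibody from E14 ESCs that carried Pcl3-TAP, a tagged Pcl3 outside the reach of the shRNAs, together with shRNA6 in 1 library and shRNA7 in another. There were 6 ChIP and 4 input DNA libraries, and the tagged lines came from picked clones. Both Suz12 groups carry the tagged allele, so neither is an untagged control. Pcl3 was mapped in a different ESC line from Suz12.

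The Suz12 list holds 8876 sites bound in scramble cells, the Suz12-depleted list holds the 5722 of these with less Suz12 after Pcl3 knockdown, the Pcl3 list holds 5242 sites and the H3K27me3-depleted list 678 sites with less H3K27me3 after knockdown. The measured value of a site is its Skellam p-value, which tests the difference between 2 normalised read counts. Depleted Suz12 sites repeat the p-value of the binding list, so that value describes binding in scramble cells and gives no size of the loss. The strength of a site is −log10 of its p-value. Sites whose p-value is too small for the number format carry a 0 in the lists (p at 0 below) and were given a strength of 307, the highest found. The median Suz12 site was 1100 bp wide and had a strength of 26.2. Reads per site and per library were not analysed here, each condition has 1 library, and the 2 Pcl3 libraries share 1 list, so no error can be attached to a site and no test was made between genes. The lists hold no expression value, and the knockdown of Pcl3 itself was therefore not checked.

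Sequence was read from mm9 (NCBIM37) in 5′ to 3′ direction along the strand of the gene, with every CpG in capitals. The first pair comes from sites where decreased H3K27me3 was called with 1 library per condition, and neither call remained at a cutoff of 1e-10. Each window is the 300 bp around the center of the only H3K27me3-depleted site, at Nkx6-1 (chr5:102092351-102092650, minus strand, coding exon and intron, 24 CpG) and Nkx6-2 (chr7:146770376-146770675, minus strand, upstream of the gene, 18 CpG).
Nkx6-1, H3K27me3-depleted: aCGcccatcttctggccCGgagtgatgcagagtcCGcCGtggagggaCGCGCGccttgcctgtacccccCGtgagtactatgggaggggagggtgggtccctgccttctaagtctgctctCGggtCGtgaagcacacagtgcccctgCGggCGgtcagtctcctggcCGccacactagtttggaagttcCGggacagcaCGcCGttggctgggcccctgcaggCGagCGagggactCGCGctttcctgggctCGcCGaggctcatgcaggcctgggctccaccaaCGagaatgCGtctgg
Nkx6-2, H3K27me3-depleted: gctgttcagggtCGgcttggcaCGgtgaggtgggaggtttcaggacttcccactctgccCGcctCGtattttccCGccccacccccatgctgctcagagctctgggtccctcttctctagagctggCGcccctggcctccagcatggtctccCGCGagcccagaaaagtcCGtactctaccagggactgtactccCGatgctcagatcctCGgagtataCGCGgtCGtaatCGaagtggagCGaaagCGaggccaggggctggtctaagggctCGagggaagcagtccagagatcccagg

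The next window lies at the center of the strongest Suz12 site of Nkx2-3 (chr19:43687751-43688050, plus strand, intron, 12 CpG). That site was depleted of Suz12 while no H3K27me3-depleted site was found at the gene. The window after it is the center of a weak Suz12 site downstream of Nkx6-1 (chr5:102085201-102085500, minus strand, 3 CpG) that is absent from the depleted list. The last is the whole interval between the 2 main Suz12 sites of Nkx2-2 (chr2:147018201-147018450, minus strand, intron, 250 bp with 1 CpG). These windows were picked after values were seen, and CpG counts of other windows do not follow their order. Depleted Suz12 sites without an H3K27me3-depleted site held 23 CpG (widest of Nkx2-2) and 25 (upstream of Nkx2-5) in their center windows. The Suz12 site of Nkx6-2, which shares bases with an H3K27me3-depleted site, held 8.
Nkx2-3, Suz12-depleted: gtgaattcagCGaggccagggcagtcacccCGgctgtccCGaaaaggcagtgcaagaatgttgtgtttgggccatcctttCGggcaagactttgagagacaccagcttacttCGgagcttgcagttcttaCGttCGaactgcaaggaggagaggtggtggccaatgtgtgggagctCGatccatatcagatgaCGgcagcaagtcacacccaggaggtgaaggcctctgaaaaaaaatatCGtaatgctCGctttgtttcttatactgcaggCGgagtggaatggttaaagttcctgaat
Nkx6-1, Suz12 not depleted: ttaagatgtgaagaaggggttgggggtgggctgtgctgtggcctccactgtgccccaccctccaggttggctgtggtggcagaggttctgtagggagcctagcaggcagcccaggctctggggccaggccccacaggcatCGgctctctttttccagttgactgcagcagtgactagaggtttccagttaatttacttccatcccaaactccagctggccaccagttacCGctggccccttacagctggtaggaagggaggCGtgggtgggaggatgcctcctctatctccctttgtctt
Nkx2-2, between Suz12 sites: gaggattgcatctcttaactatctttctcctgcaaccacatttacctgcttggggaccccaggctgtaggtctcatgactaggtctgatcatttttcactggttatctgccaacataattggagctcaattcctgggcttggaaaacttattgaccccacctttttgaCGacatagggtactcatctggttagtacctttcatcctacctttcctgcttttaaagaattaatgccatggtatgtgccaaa

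All 8 Nkx genes held a Suz12 site, and in all 8 the annotated gene start lay inside it. Over all protein-coding genes a Suz12 site was found at 28.8%, and the start lay inside a site at 18.2%. The 8 regions held 23 distinct Suz12 sites, with 1 site at Nkx6-2 and 5 at Nkx3-2. The strongest site had a p-value written as 0 at 7 of the 8 genes, against 2.09% of all genes, and was at least 4 kb wide at 7 of 8, against 1.69%. Nkx2-9 was the exception to both counts. Suz12 sites covered from 67.1% of the gene body at Nkx6-2 to 100% at Nkx2-3, Nkx2-5, Nkx2-9 and Nkx3-2.

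**Figure D1:**
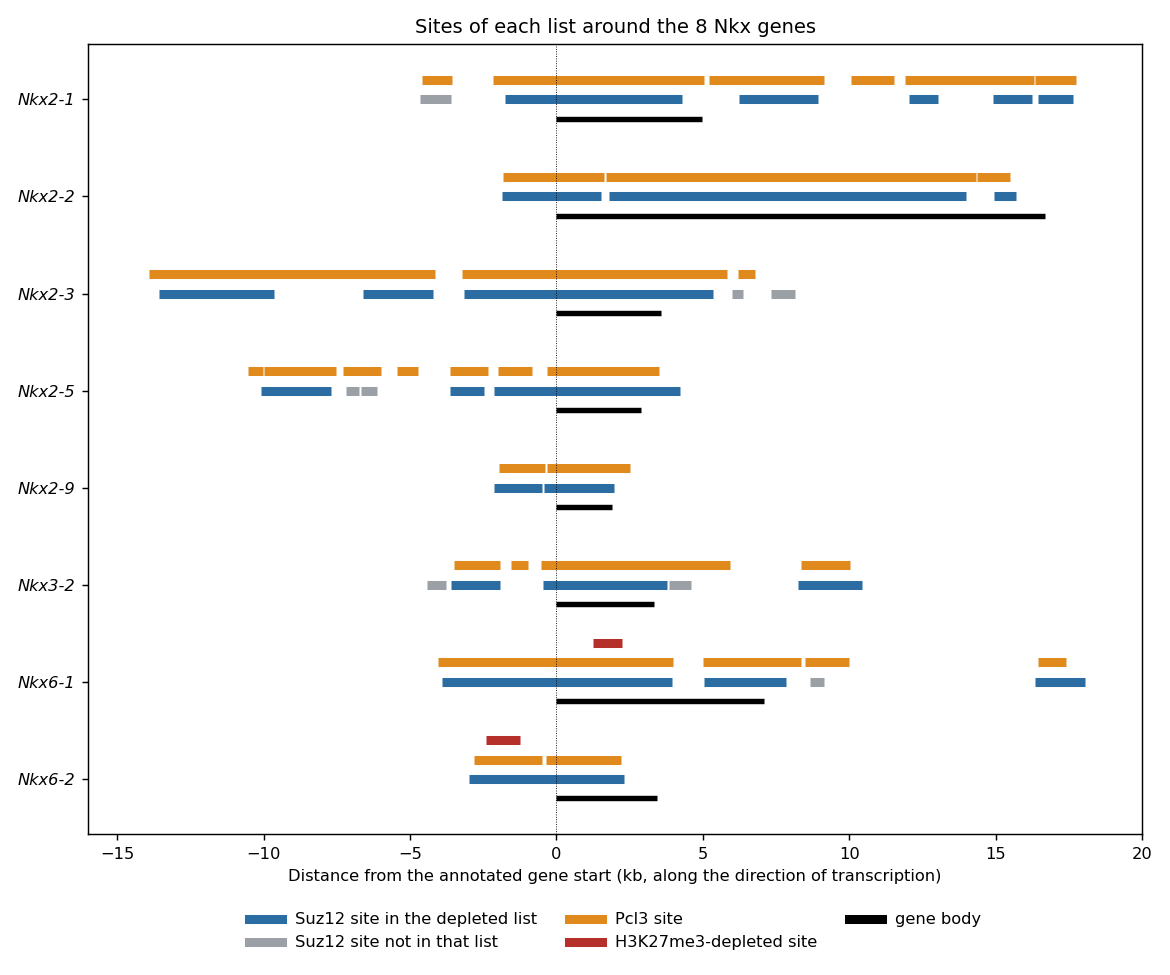
Sites of the Suz12, Pcl3 and H3K27me3-depleted lists (bars) against the distance from the annotated start of each Nkx gene in kb, drawn along the direction of transcription from 16 kb before to 20 kb after the start, with the gene body in black. Every start lies inside a blue Suz12 site of the depleted list and an orange Pcl3 site, and red H3K27me3-depleted sites appear at Nkx6-1 and Nkx6-2 only.

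Nkx2-2, which specifies ventral interneuron progenitors and pancreatic endocrine cells, had the widest domain. Its strongest Suz12 site spanned 12200 bp, from 1779 to 13978 bp after the gene start (chr2:147006001-147018200), and ranked 6 by width among the 8876 sites. Another site with p at 0, 3400 bp wide, covered the start itself (chr2:147018451-147021850), and a small one of 750 bp lay in an intron (chr2:147004301-147005050, strength 15.8). The first of these also covers 6430503K07Rik, a processed transcript, and both large sites overlap Nkx2-2as, a long noncoding RNA gene on the opposite strand, so the domain cannot be given to Nkx2-2 alone.

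Nkx6-1, a factor of pancreatic beta cells and motor neuron progenitors, had a Suz12 site of 7850 bp around its start (chr5:102090301-102098150, p at 0), another of 2800 bp over its 3′ part (chr5:102086401-102089200, strength 200) and a weak one of 500 bp downstream (chr5:102085101-102085600, strength 7.97). Its paralog Nkx6-2, which acts in the central nervous system and in oligodendrocytes, had 1 site of 5300 bp (chr7:146766401-146771700, p at 0) that began 3004 bp before the start and ended 2295 bp into the gene. At Nkx2-9, a ventral neural tube factor, the 2 sites were narrower, 2400 bp over the start (chr12:57712301-57714700, strength 219) and 1650 bp upstream (chr12:57714751-57716400, strength 51.9), with 50 bp between them. Nkx2-9 was thus the weakest and narrowest of the 8, yet its start site was stronger than 92.1% of the Suz12 list.

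Nkx2-1, required for lung, thyroid and ventral forebrain, lies on chromosome 12 in the same orientation as Nkx2-9, with 74480 bp between the genes. Its start lay in a site of 6050 bp (chr12:57633601-57639650, p at 0), flanked by a downstream site of 2700 bp (chr12:57628951-57631650, strength 124) and an upstream site of 1050 bp (chr12:57641501-57642550, strength 20.6). Between the regions of the 2 genes 0 sites of any list were found. The same was true between Nkx2-2 and its neighbor Nkx2-4, 92100 bp apart.

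Nkx2-5, a regulator of heart muscle development, had a site of 6350 bp over the whole gene (chr17:26974301-26980650, p at 0) and one of 1150 bp upstream (chr17:26981001-26982150, strength 70.1). At Nkx2-3, a gut and spleen factor, a site of 8500 bp covered the whole gene (chr19:43683651-43692150, p at 0), with 1 site of 2400 bp upstream (chr19:43680201-43682600, strength 153) and 2 weak ones downstream (chr19:43692801-43693200, strength 7.59, and chr19:43694151-43694950, strength 14.4). The large site also covers part of Gm20467, a processed transcript on the opposite strand. Nkx3-2, also known as Bapx1, acts in the axial skeleton and spleen and had the most fragmented pattern. Its start site spanned 4250 bp (chr5:42151951-42156200, p at 0). Of the other 4 sites, 2 were strong, at chr5:42157651-42159350 upstream (strength 76.3) and chr5:42145301-42147500 downstream (strength 65.6), and 2 were weak, at chr5:42151151-42151900 (strength 12.5) and chr5:42159501-42160150 (strength 8.34).

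By width, the strongest Suz12 sites ran in the order Nkx2-2, Nkx2-3, Nkx6-1, Nkx2-5, Nkx2-1, Nkx6-2, Nkx3-2 and Nkx2-9, from 12200 to 2400 bp. With 1 list there is no spread over samples, so neighbours in this order cannot be separated by replicate error. The median over the 8 genes was 6200 bp, against 1300 bp for the widest site of all genes with Suz12. The members are short genes, with a median length of 3494 bp against 15420.5 bp over all protein-coding genes. The exception is Nkx2-2, which has the widest site and at 16698 bp is the longest of the 8, above the median of all genes.

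**Figure D2:**
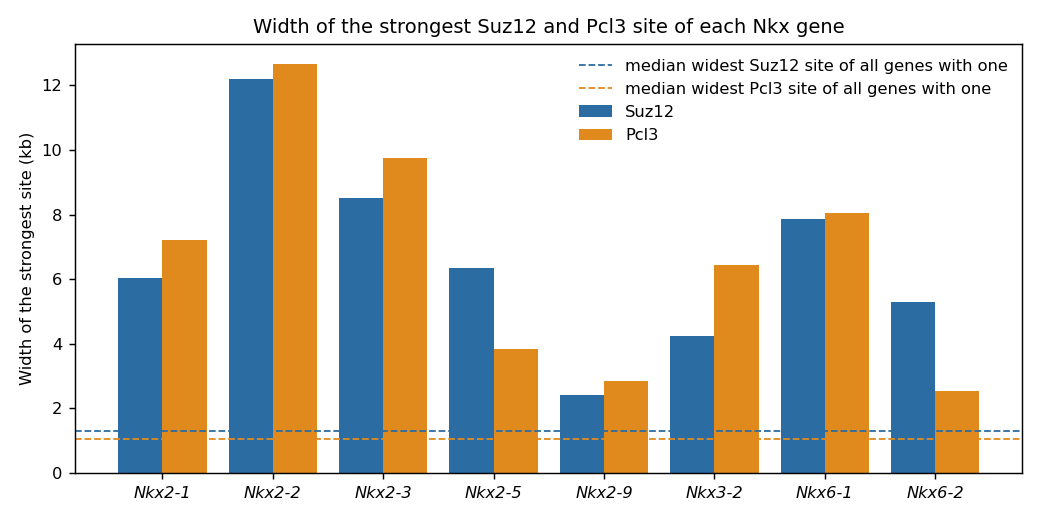
Width in kb of the strongest Suz12 (blue) and Pcl3 (orange) site of each Nkx gene, the widest where p-values tied at 0, with dashed lines at the median widest site of all genes that have one. Every bar stands above the medians, 1300 bp for Suz12 and 1050 bp for Pcl3, and the Suz12 bar is the taller at Nkx2-5 and Nkx6-2 only.

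Every Nkx gene had at least 1 Suz12 site with decreased binding after Pcl3 knockdown. The paper reports that the knockdown also lowered Suz12 mRNA and protein, and allows that this may account for part of the reduced binding. How much of the decrease at the Nkx genes goes with lower Suz12 levels was not tested. A site of the depleted list was present at 8 of 8 genes, against 20.6% of all genes and 71.7% of the genes with a Suz12 site. In all 8 the site over the gene start was among them. Site by site, 17 of 23 (73.9%) were in the depleted list, where 64.5% of all Suz12 sites were. At Nkx2-2, Nkx2-5, Nkx2-9 and Nkx6-2 every Suz12 site was depleted.

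The other 6 sites were outside the depleted list, and each lay away from the gene start. They were the upstream site of Nkx2-1, both downstream sites of Nkx2-3, the 2 weak sites of Nkx3-2 and the weak downstream site of Nkx6-1, with strengths from 7.59 to 20.6. At such a site a decrease of Suz12 was not called, which does not show that binding was kept. The paper also found weaker sites to be affected less often. It proposes that Pcl3 brings further Suz12 to regions of low binding, and allows as an alternative that a change may be harder to detect at weaker sites. Neither was tested here. Strength alone did not order the 2 kinds, since the depleted intronic site of Nkx2-2 (strength 15.8) was weaker than the Nkx2-1 site that was not (strength 20.6). Depletion followed strength closely over the whole list. The depleted share climbed from 2.48% of the weakest decile to 48.6% of the fourth and 100% of the strongest. The Nkx genes had 10 of their 23 sites in the strongest decile and 3 in the weakest. A set of sites with the same spread over deciles as the Nkx sites would have 78.2% depleted, which differs from the Nkx share by about 1 site.

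**Figure D3:**
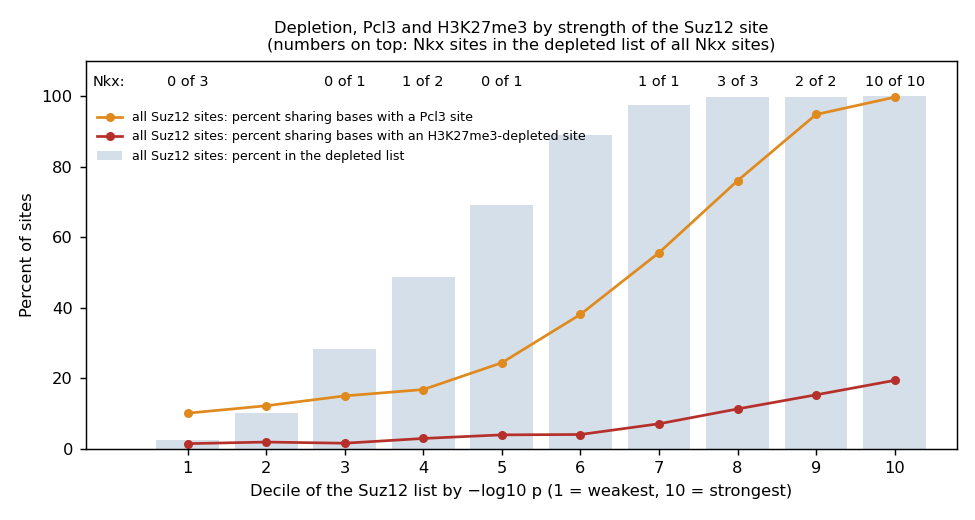
Percent of all Suz12 sites in each decile of −log10 p (1 weakest, 10 strongest) that are in the depleted list (bars), share bases with a Pcl3 site (orange) or share bases with an H3K27me3-depleted site (red), and above them the Nkx sites in the depleted list out of all Nkx sites of that decile. Bars climb from 2.48% to 100%, and 10 of 10 Nkx sites in the strongest decile are depleted against 0 of 3 in the weakest.

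Pcl3-TAP was bound at all 8 Nkx genes, against 14.7% of all genes and 47.7% of those with Suz12. The strongest Suz12 site of each of the 8 lay in the strongest decile, where 99.7% of all Suz12 sites shared bases with a Pcl3 site. In this count the Nkx genes were therefore like other strong Suz12 sites. Every start lay inside a Pcl3 site, against 7.69% of all genes. The p-value of a Pcl3 site was written as 0 at Nkx2-1, Nkx2-2, Nkx2-3, Nkx3-2 and Nkx6-1, that is 5 of 8 genes against 1.01% of all. At the other 3 the strongest Pcl3 site had a strength of 209 (Nkx2-5), 181 (Nkx6-2) and 96.2 (Nkx2-9). Nkx2-9 was therefore the weakest member for both proteins.

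Of the 23 Suz12 sites, 21 (91.3%) shared bases with a Pcl3 site, against 44.3% of all Suz12 sites and 68.4% after weighting to the deciles of the Nkx sites. The 2 without Pcl3 were the weak sites at chr19:43694151-43694950 near Nkx2-3 and at chr5:42159501-42160150 near Nkx3-2, and neither was depleted. The remaining 4 sites outside the depleted list did share bases with Pcl3, so a Pcl3 site was present both where a decrease of Suz12 was called and where none was. With centers within 500 bp as the rule the Nkx share was 69.6%, and no background was counted by that rule. Counted in bases, 94.0% of the Suz12-covered sequence was also under Pcl3, against 48.8% over all sites. The extremes were 82.0% at Nkx2-5 and 100% at Nkx6-1. The base shares were not weighted for strength, and 99.7% of all Suz12 sites in the strongest decile shared bases with Pcl3. From the Pcl3 side, 84.8% of the covered sequence was also under Suz12, against 81.0% over all sites.

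The 2 proteins did not cover every locus in the same shape. At Nkx2-2 and Nkx6-1 the main sites ran nearly edge to edge, 12200 bp of Suz12 beside 12650 bp of Pcl3 and 7850 bp beside 8050 bp. At Nkx3-2 a Pcl3 site of 6450 bp ran across 2 Suz12 sites and the 50 bp between them, reaching 1 that was depleted and 1 that was not. Upstream of Nkx2-3 a Pcl3 site of 9750 bp (chr19:43672901-43682650, p at 0) covered 2 Suz12 sites, the farther of which lies outside the region counted here. The reverse was seen at Nkx2-5, where 2 Pcl3 sites of 3850 and 1150 bp lay within the 6350 bp of Suz12, and at Nkx6-2, where 2 Pcl3 sites of 2550 and 2300 bp lay within 5300 bp. The strongest Pcl3 sites of the 8 genes had a median width of 6825 bp, against 1050 bp for the widest site of all genes with Pcl3.

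Of the 23 Pcl3 sites at the Nkx genes, 2 shared no base with Suz12, where 76.9% of all Pcl3 sites did share bases. They lay upstream of Nkx2-5 (chr17:26983251-26983950, strength 14.9) and of Nkx3-2 (chr5:42156701-42157300, strength 8.95), the latter in the interval between 2 Suz12 sites.

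**Figure D4:**
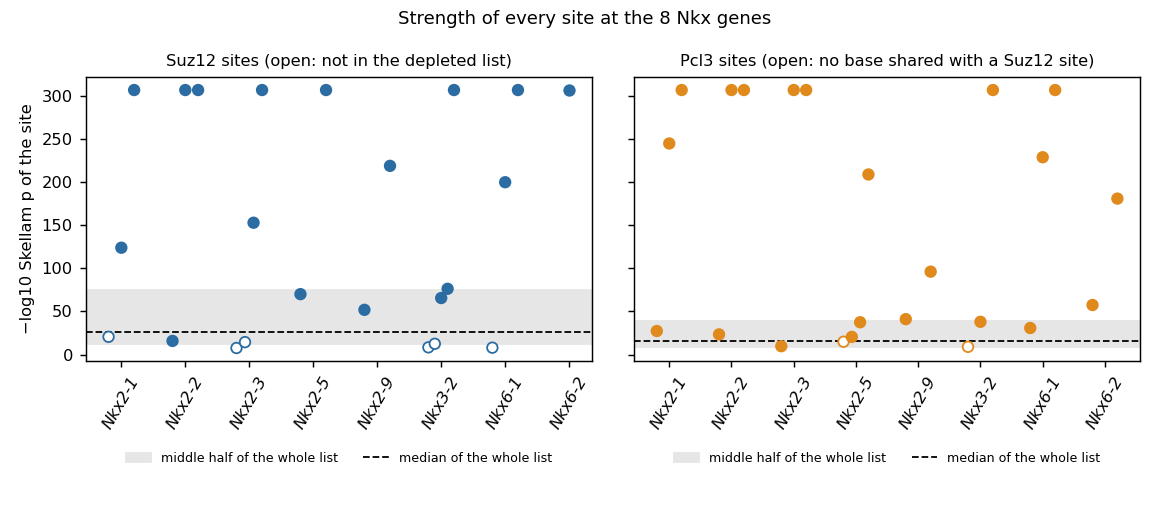
−log10 Skellam p-value of every Suz12 (left) and Pcl3 (right) site at each Nkx gene, with p written as 0 drawn at 307, the range between the quartiles of the whole list in grey and its median dashed. Open blue points, the 6 Suz12 sites outside the depleted list, all lie below the median of 26.2, and so does 1 filled point at Nkx2-2.

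Decreased H3K27me3 was called at Nkx6-1 and Nkx6-2 and at 0 of the 6 other members. The share, 2 of 8 genes or 25.0%, stood against 3.13% of all genes, 10.5% of genes with a Suz12 site and 34.0% of genes whose Suz12 p-value was written as 0. Among the 7 members in that last class it was 28.6%, so the Nkx genes were not above genes of like Suz12 strength. A site in all 4 lists was found at the same 2 genes, against 2.23% of all genes. Of the 23 Suz12 sites, 2 (8.7%) shared bases with an H3K27me3-depleted site, against 6.89% of all and 12.2% after weighting to the deciles of the Nkx sites.

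At Nkx6-1 the H3K27me3-depleted site lay inside the gene, from 1245 to 2244 bp after the start (chr5:102092001-102093000, 420 coding and 580 intronic bp), with a strength of 7.18, near the low end of its list, where 14.9% of the 678 sites were weaker. At Nkx6-2 it lay upstream, from 2404 to 1255 bp before the start (chr7:146769951-146771100), with a strength of 8.66, and 53.2% of the list was weaker. Neither site reached the gene start, and each lay wholly inside a depleted Suz12 site with a p-value written as 0. With p-values of at most 1e-10 required in every list, 201 H3K27me3-depleted sites remained in all and 0 at the Nkx genes, so the calls at both genes rest on the looser cutoff. For the 6 other members the nearest H3K27me3-depleted site was between 225165 bp (Nkx2-3) and 3440254 bp (Nkx3-2) from the gene body. A gene without such a site is one where a decrease did not pass the cutoff in these 2 libraries, and H3K27me3 levels themselves are not in the lists.

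The 5 comparison genes, which are not the whole rest of the family, varied more than the members. All 5 had a Suz12 site, a depleted site and a Pcl3 site, and 0 had an H3K27me3-depleted site. The gene start lay inside a Suz12 site at 3 of 5, the exceptions being Nkx2-6 and Nkx6-3, and 3 of 5 had a Suz12 p-value written as 0. Suz12-covered sequence summed to 8350 bp at Nkx1-1, 4300 bp at Nkx1-2, 2600 bp at Nkx2-4, 1450 bp at Nkx2-6 and 2600 bp at Nkx6-3. The share of it that was also under Pcl3 was 85.6% at Nkx1-1, 100% at Nkx1-2 and Nkx2-4, 79.3% at Nkx2-6 and 17.3% at Nkx6-3. Upstream of Nkx6-3 a depleted Suz12 site (chr8:24259801-24261000, strength 37.8) shared no base with Pcl3, whereas every depleted site of the 8 members did.

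Other lists of developmental regulators, also chosen with earlier results known, were bound at most or all of their genes. Suz12 was found at 12 of 12 LIM homeobox genes, 9 of 9 Dlx and Msx genes and 16 of 16 ventral neural tube patterning genes. It was found at 16 of 19 heart field genes, the exceptions being Nppa, Nppb and Bmp10, and at 17 of 18 foregut and pancreas genes, with Pax4 as the exception. Depleted sites and Pcl3 sites were each present at the same numbers of genes in 4 of these lists. Each was present at 14 of 16 ventral neural tube genes. There Gli2 had neither, Gli3 had no depleted site and Foxn4 had no Pcl3 site. The 8 of 8 Nkx genes with both were thus like the LIM and the Dlx and Msx genes. H3K27me3-depleted sites were present at 3 of 12 LIM, 4 of 9 Dlx and Msx, 4 of 16 ventral neural tube, 7 of 19 heart field and 5 of 18 foregut and pancreas genes. The Nkx share of 25.0% lay at the low end of these, which ran from 25.0% to 44.4%. Pluripotency genes, which are active in ESCs, had Suz12 less often than these lists, at 5 of 12 (41.7%), though not less than all genes (28.8%). The start lay inside a Suz12 site at 2 of 12 (16.7%), against 18.2% of all genes. An H3K27me3-depleted site was present at 2 of 12 (16.7%), against 3.13%. Suz12 was found at Prdm14, Klf4, Tbx3, Utf1 and Esrrb. Pou5f1, Nanog and Sox2 had no Suz12 site, although Sox2 had a Pcl3 site.

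The genes most like each member were sought among those with the same combination of lists, by the distance between the −log10 p-values of the strongest sites of 3 lists. There were 2370 genes with Suz12, depleted and Pcl3 sites only and 500 with all 4. Nkx2-1, Nkx2-2, Nkx2-3 and Nkx3-2 tied with 125 gene records at the upper limit of both values, so no nearest gene can be named for them. Sox17, an endoderm factor, was nearest to Nkx2-5 (distance 1.66), Lef1, a mediator of Wnt signaling, to Nkx2-9 (3.34) and Esrrg, an orphan nuclear receptor, to Nkx6-2 (1.3). Hmx1, a homeobox gene, and its neighbor E130018O15Rik were nearest to Nkx6-1 (0.00183). All of these were at the upper limit for Suz12 and Pcl3, so that match rests on the strength of the H3K27me3-depleted site alone (7.18).

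Sequence was compared with binding because CpG-rich DNA is a known feature of PRC2 targets. In the window from 10 kb before to 20 kb after the 8 starts, 35.5% of the 960 bins of 250 bp lay in a Suz12 site. The share was 98.1% of the 106 bins with at least 5 CpG per 100 bp and 6.77% of the 399 bins with less than 1. It was 32.7% from 1 to 3 CpG per 100 bp and 84.0% from 3 to 5. Bins at other genes were not counted. The 2 dense bins outside lay 4375 bp before the start of Nkx6-1 and 4375 bp after that of Nkx6-2. In every member the bin richest in CpG, between 10.0 per 100 bp at Nkx2-9 and 15.2 at Nkx2-3 and Nkx6-2, lay in a depleted Suz12 site. Bins of 1 locus are neighbors and share base composition, and these shares are a description.

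**Figure D5:**
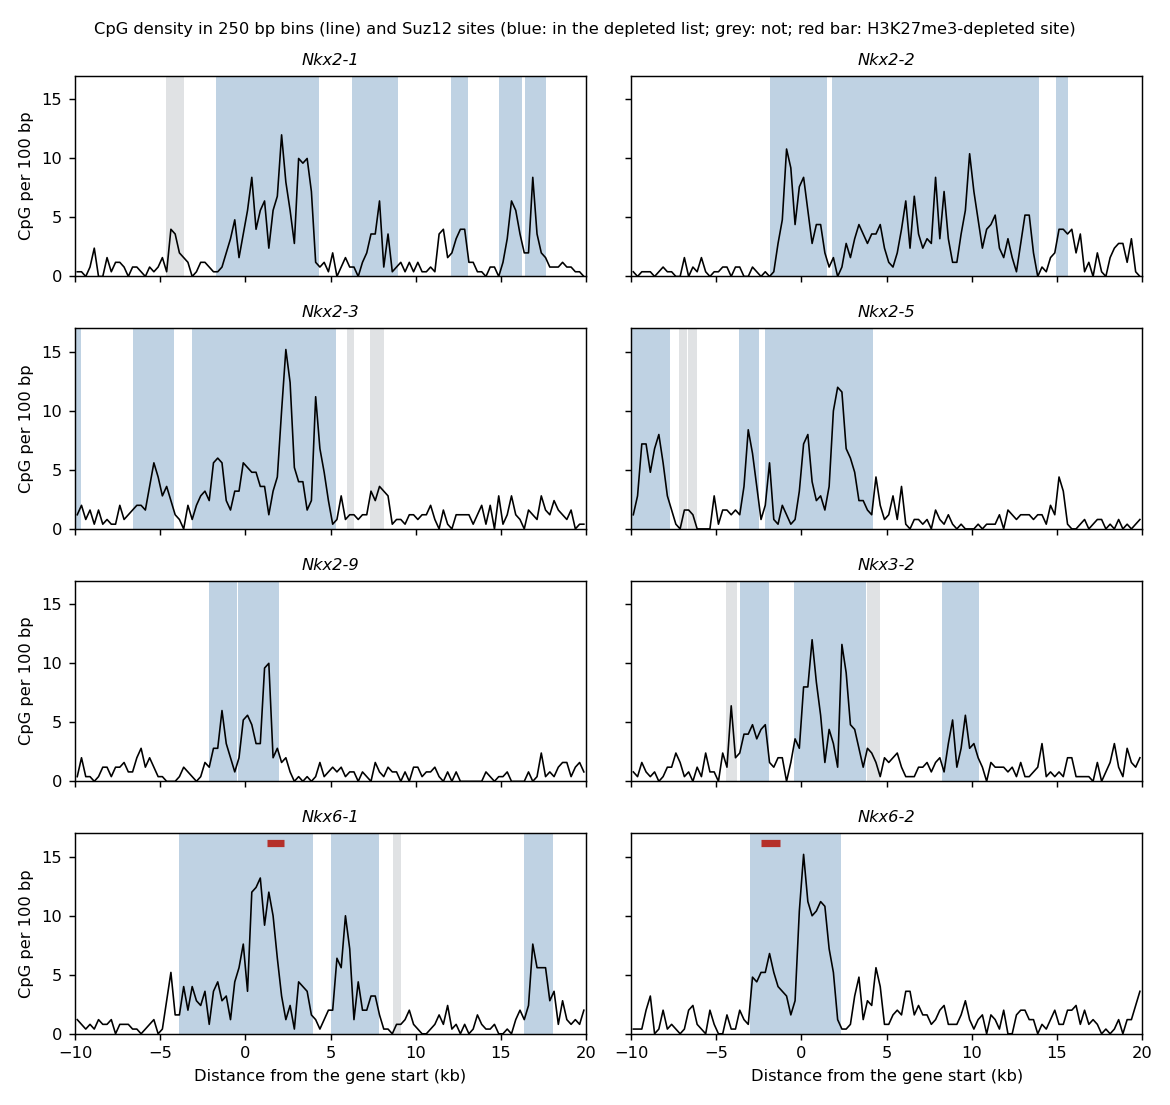
CpG per 100 bp in 250 bp bins (line) against the distance from the start of each Nkx gene in kb, over Suz12 sites in the depleted list (blue), other Suz12 sites (grey) and H3K27me3-depleted sites (red bars). Peaks of the line fall in blue areas, highest at 15.2 in Nkx2-3 and Nkx6-2, and the line is low between sites.

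The intervals between neighboring Suz12 sites were poor in CpG. Of 15 intervals, 13 had a lower CpG density than both flanking sites, with a median of 1.05 CpG per 100 bp, as in the Nkx2-2 interval printed above with 1 CpG in 250 bp between 2 sites with a p-value written as 0. Over all intervals of at most 4 kb between Suz12 sites 80.3% of 1838 were lower than both neighbors, with a median of 1.33, so the Nkx loci were like the rest of the list. The 2 exceptions adjoin the weak downstream sites of Nkx6-1 and Nkx2-3, which hold 0.6 and 1.5 CpG per 100 bp. Reads of 30 nucleotides were kept only where they aligned uniquely, so the share of 30-base words that occur exactly 1 time in mm9 was counted. It was at least 90% in 13 of the 15 intervals, 86.2% in an interval of 650 bp at Nkx2-3 and 74.0% in one of 50 bp at Nkx3-2, and the part of recurring sequence in these intervals was not tested. Over whole regions the share was 94.4% at Nkx2-2 to 100% at Nkx6-2.

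Depleted Nkx sites were richer in CpG than those outside the depleted list. The 17 depleted sites had a median of 4.25 CpG per 100 bp (range 2.15 to 6.6) and the 6 others 2.42 (range 0.6 to 3.69), so the ranges overlapped. Over the whole list the medians were closer, 5.45 and 5.27. In the central 300 bp the medians were 4.33 (range 2.0 to 8.33) and 2.67 (range 1.0 to 5.33) at the Nkx sites and 8.0 and 6.33 over the whole list. The printed Nkx6-1 window outside the depleted list, with 3 CpG, is the poorest of the 23, and the windows of the 2 depleted Suz12 sites of Nkx6-1 hold 6 and 14. Over their full widths the H3K27me3-depleted sites held 7.9 (Nkx6-1) and 5.48 (Nkx6-2) CpG per 100 bp, against 4.89 and 6.6 in the Suz12 sites around them, so they were denser than their surroundings at Nkx6-1 and less dense at Nkx6-2.

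The letters GCGCGC, which read the same on both strands, were searched in the 300 bp around the center of each Suz12 site. A window of that size holds only a small part of a wide Nkx site. The letters were found at 3 of the 23 Nkx sites (13.0%), against 27% of all 8876. Among the strongest sites of the 8 members they were found at 2 (25.0%). They are in the printed Nkx6-1 window of decreased H3K27me3 and not in that of Nkx6-2. In promoters, from 250 bp before to 50 bp after the start, they were found at 1 of the 8 genes, Nkx6-2, against 16.6% of all protein-coding genes. Promoter CpG density had a median of 5.0 per 100 bp at the 8 genes and 3.67 over all, and the Nkx promoters ran from 3.0 at Nkx2-5 to 10.7 at Nkx6-2.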

How the data were processed

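Per the study's methods, the authors placed single-end reads of 30 nucleotides on mm9 with Bowtie (version not given in the sources used here) and dropped reads that fit several places. Each pair of libraries was scaled so that the background matched. Windows of 400 bp past a Skellam cutoff of 1e-07 were then joined into sites. The deposited lists give 1 p-value per site and no counts. Whether the 2 Pcl3-TAP libraries were pooled before calling is not given in the sources used here. This scaling takes the background of the 2 libraries as alike.

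Gene positions and sequence came from GENCODE vM1 and NCBIM37, and list starts were made 1-based. The −log10 values, widths, overlaps, CpG counts and 30-base words were computed from the files. The overlap functions were tested on simulated data. No test between genes was made.

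The members, lists and comparisons were chosen with earlier results of these data known. Named genes are the 8 members with all their sites, the other Nkx genes, genes sharing a site with a member, the gene nearest in p-values, and genes that differ from the rest of a list when there are 3 or fewer. The pluripotency genes that are named, Pou5f1, Nanog and Sox2 among them, were singled out after their values were seen. Printed windows were to be the strongest site of 1 member per combination of lists. Those windows of Nkx2-2 and Nkx6-1 hold UTR sequence and were replaced, after values were seen, by the windows shown. A further Nkx gene and a further gene list are not reported here. Alternatives varied the flank, cutoff, overlap rule and background. Software was matplotlib 3.10.9, scipy 1.17.1, pandas 2.3.3 and numpy 2.4.6 under Python 3.11.15.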

Additional observations from a re-analysis of the deposited data

How the results depend on the processing

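The counts of 8 genes with Suz12, depleted and Pcl3 sites held at flanks of 0, 2, 10 and 20 kb, at cutoffs of 1e-10 and 1e-12, with site centers in the region and within 2 kb of the gene start. Every start lies inside a depleted Suz12 site and a Pcl3 site that pass both cutoffs. These flanks and cutoffs therefore could not change the counts. The count with an H3K27me3-depleted site moved from 2 to 1 without a flank and to 0 at either cutoff. Distinct Suz12 sites moved from 23 to 11 without a flank and to 11 within 2 kb of the start. The depleted share moved from 73.9% to 100% without a flank, since the 6 sites not in the depleted list lie outside the gene bodies. The share with Pcl3 moved from 91.3% to 100% at flanks of 0 and 2 kb and to 69.6% with centers within 500 bp, and the cause of the latter was not tested. The share with an H3K27me3-depleted site moved from 8.7% to 0% at either cutoff and with centers within 500 bp. Taken over genes with a Suz12 site, the background moved from 20.6% to 71.7% for depleted sites, from 14.7% to 47.7% for Pcl3 and from 3.13% to 10.5% for H3K27me3. Weighted to the deciles of the Nkx sites, it moved from 64.5% to 78.2%, from 44.3% to 68.4% and from 6.89% to 12.2%. Of 78 recomputed values 60 stayed and 18 moved. A count stayed when it was within 1.5 times, and a share when it was within the 95% exact interval. Medians for the strongest Suz12 site of each member were held to limits of their own, and none of them moved. The median strength stands at the upper limit of 307. Values that could not change are among those that stayed. With 1 library per condition, no library could be left out.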
